A study of Homo sapiens with 6 samples.

Results

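The plasminogen activation system was followed in HCT116, a long-established line from a human colorectal carcinoma, through 6 genes taken by symbol from the deposited count table: PLAU, PLAT, PLAUR, S100A10, SERPINE2 and SERPINB5. All 6 were found among the 17269 genes of the table, and all 6 passed the filter on low counts that left 13104 genes for testing. Poly(A) RNA was sequenced in 3 libraries labelled shCtrl, whose genotype is given as WT, and 3 labelled shPRSS22, whose genotype is given as PRSS22 knockdown. All cells were grown in RPMI1640 medium with 10% fetal bovine serum. The sources used here give neither the hairpin nor how long it acted, and do not say whether knockdown cells were 1 clone or a pool, or whether replicates were separate cultures. P-values therefore measure only the spread between these libraries, which may be technical. The comparison asks which transcripts of the system differ when PRSS22 is depleted.

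Plasminogen is a circulating zymogen that is cut to plasmin, a broad protease of fibrin and matrix, by urokinase (PLAU) or tissue plasminogen activator (PLAT). Urokinase is held at the cell surface by its receptor, PLAUR, while S100A10, in complex with annexin A2, is one of the surface proteins that bind plasminogen. Serpins restrain the activators: SERPINE2, protease nexin 1, inhibits urokinase, thrombin and plasmin, whereas SERPINB5, maspin, is a serpin without protease inhibitory activity that is typical of epithelia. PRSS22, tryptase epsilon, is a trypsin-like protease of epithelia for which pro-urokinase is a known substrate.

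Libraries held 14920523 to 15466647 counts, and the members had between 219 and 6472 counts in a library, so none was near the detection limit. PRSS22 was lower in every knockdown library, at 10.1, 9.38 and 10.1 CPM (counts per 1000000, scaled between libraries by the trimmed mean of M-values, TMM) in shCtrl and 3.09, 3.16 and 2.61 CPM in shPRSS22. The colorectal epithelial markers EPCAM, KRT8, KRT18, KRT19, CDH1 and CDX2 averaged at least 1 CPM, whereas CDH17, VIL1 and LGALS4 had at most 23 counts in a library. Of the first 6, CDH1 (E-cadherin) was called higher in shPRSS22 (log2 fold change 0.15, adjusted p = 0.000901) and the others were not called. The part of CDH1 in the results was not tested. The 9 measured markers of this list summed to between 4105 and 4299 CPM (of the unscaled total) in shCtrl and between 4030 and 4263 CPM in shPRSS22. Of 11 measured markers of immune, endothelial and fibroblast cells, 2 averaged at least 1 CPM. The fibroblast collagen COL1A1 stood at 28.7 ± 3.98 CPM in shCtrl and 30.3 ± 2.77 CPM in shPRSS22, above PLAT, and was not called, and VWF stood at 1.15 ± 0.483 and 1.46 ± 0.148 CPM. The other 9 had at most 9 counts in a library, CDH5 had 0 counts in every library, and the list summed to 25.5 to 34.0 CPM in shCtrl and 30.9 to 37.2 CPM in shPRSS22. In bulk RNA, fewer cells carrying a transcript and less transcript per cell cannot be told apart.

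The promoters of PLAUR and SERPINB5 are shown because these were the members with the largest fall and the largest rise. Each sequence is the 250 bases before the transcript start in RefSeq (GRCh38.p14), written 5′ to 3′ on the strand of the gene. These RefSeq starts lie inside the gene spans that GENCODE gives, so the PLAUR window and most of the SERPINB5 window fall within those spans. In the sequences, capitals mark matches to TGANTCA, the pattern used here for the AP-1 motif, in which N stands for any base. The match is TGAGTCA in PLAUR and TGAATCA in SERPINB5, so the matched letters differ.
PLAUR, chr19:43670170-43670419, minus strand: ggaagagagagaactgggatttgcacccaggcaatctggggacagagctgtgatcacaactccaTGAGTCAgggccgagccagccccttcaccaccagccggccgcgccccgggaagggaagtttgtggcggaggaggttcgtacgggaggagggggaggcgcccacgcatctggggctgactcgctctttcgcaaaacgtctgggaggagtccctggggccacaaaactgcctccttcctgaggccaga
SERPINB5, chr18:63476708-63476957, plus strand: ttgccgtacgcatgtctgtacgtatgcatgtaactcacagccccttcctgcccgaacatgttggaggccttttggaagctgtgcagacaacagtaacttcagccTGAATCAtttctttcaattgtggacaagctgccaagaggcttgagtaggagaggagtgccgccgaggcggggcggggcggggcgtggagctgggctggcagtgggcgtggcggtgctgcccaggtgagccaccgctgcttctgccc
The pattern, with its open base, reads the same on both strands. It occurred once in each of these windows, 186 bases before the start of PLAUR and 146 bases before that of SERPINB5, and in 6.57% of 35116 RefSeq promoter windows of the same length. No match stood in the windows before the listed starts of PLAU, SERPINE2 or S100A10, and PLAT was not searched. The GC box GGGCGG, found in 42.6% of all windows on either strand, occurred before SERPINB5 (2 overlapping matches, 77 and 72 bases before the start) and before a start of PLAU, of SERPINE2 and of S100A10, but not before PLAUR. The antioxidant response element TGACNNNGC (10.9% of windows) occurred before a start of PLAU and of SERPINE2, and the E-box CACGTG (6.34%) before a start of SERPINE2. A match describes letters only.

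PLAU and PLAT, the activators, were both higher in each knockdown library than in any control library, but only PLAU passed the test. PLAU (Entrez 5328; chromosome 10, 73909177 to 73917497, plus strand of GRCh38, GENCODE 29) stood at 245, 239 and 236 CPM in shCtrl replicates 1 to 3 and at 279, 298 and 265 CPM in shPRSS22 replicates 1 to 3. The knockdown libraries were spread more widely than the controls, and the groups did not overlap. The means were 239.8 ± 4.48 and 280.6 ± 16.6 CPM (SD, n = 3), a log2 fold change of 0.23 (SE 0.037; edgeR quasi-likelihood test, adjusted p = 1.05e-05), or 17.0% more. PLAU shares 916 exonic bases with C10orf55 on the opposite strand, a gene not analysed here, and no strand marking is stated, so reads of the 2 genes over that stretch could not be separated.

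PLAT (Entrez 5327; chromosome 8, 42175233 to 42207724, minus strand) was the least abundant member, with 219 to 249 counts in a library. It measured 15.02, 14.46 and 14.94 CPM in shCtrl and 15.51, 16.37 and 16.0004 CPM in shPRSS22. The groups were 0.487 CPM apart at their nearest libraries. The log2 fold change was 0.11 (SE 0.082, 95% interval -0.06 to 0.27; adjusted p = 0.308), so a rise of the size seen for PLAU lies inside the interval.

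PLAUR, the receptor of urokinase, changed in the direction opposite to its ligand. PLAUR (Entrez 5329; chromosome 19, 43646095 to 43670547, minus strand) had 100.3, 97.8 and 96.4 CPM in shCtrl and 67.8, 71.0 and 60.7 CPM in shPRSS22. Its highest knockdown value was 25.4 CPM below the lowest control value. The means were 98.2 ± 1.99 and 66.5 ± 5.29 CPM, a log2 fold change of -0.56 (SE 0.047, adjusted p = 2.83e-11). Its fold change ranked 344 from the lowest among the 13104 tested genes.

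S100A10 (Entrez 6281; chromosome 1, 151982915 to 151994390, minus strand) was also lower. Its values were 91.6, 90.3 and 88.8 CPM in shCtrl and 72.8, 82.6 and 74.6 CPM in shPRSS22. The knockdown library of replicate 2 lay nearest to the controls, and the groups were still 6.26 CPM apart. The means were 90.2 ± 1.39 and 76.7 ± 5.17 CPM, and the log2 fold change was -0.23 (SE 0.045, adjusted p = 0.000101).

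The serpins changed in opposite directions. SERPINE2 (Entrez 5270; chromosome 2, 223975112 to 224039319, minus strand), the member with the most counts, read 427, 422 and 428 CPM in shCtrl and 344, 351 and 351 CPM in shPRSS22. Libraries of a group lay close together, and the groups were 71.1 CPM apart. The log2 fold change was -0.29 (SE 0.032, adjusted p = 1.10e-08), from 425.7 ± 3.26 to 348.5 ± 3.92 CPM.

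SERPINB5 (Entrez 5268; chromosome 18, 63476761 to 63505085, plus strand) rose most among the members. It stood at 51.1, 52.7 and 56.6 CPM in shCtrl and at 83.1, 84.9 and 84.2 CPM in shPRSS22. Here the controls were the more widely spread group, and the lowest knockdown library was 26.6 CPM above the highest control. The means were 53.5 ± 2.79 and 84.1 ± 0.869 CPM, a log2 fold change of 0.65 (SE 0.046, adjusted p = 4.73e-13), or 57.2% more. Its fold change ranked 240 from the highest among all tested genes.

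**Figure D1:**
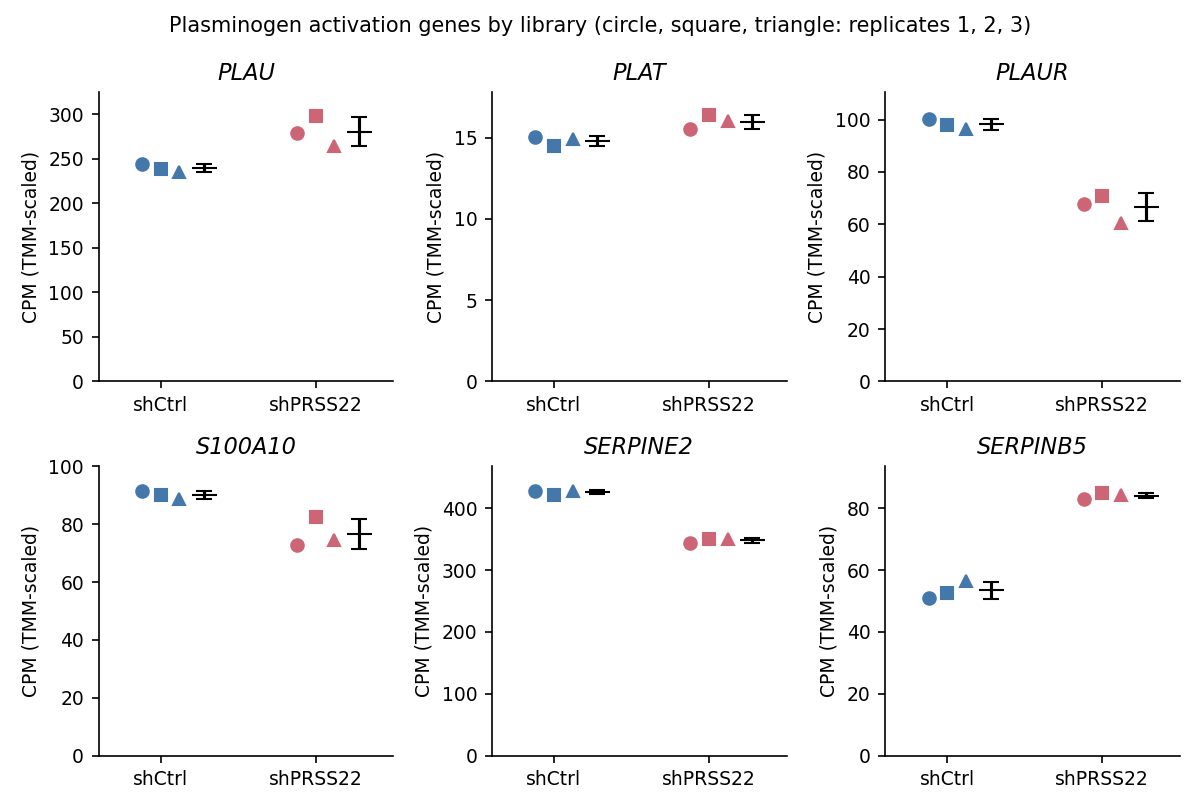
Each panel plots 1 gene: TMM-scaled CPM on a linear axis from 0, with circles, squares and triangles for replicates 1, 2 and 3, and a black bar for the mean ± SD of 3 libraries. PLAUR, S100A10 and SERPINE2 sit lower in every shPRSS22 library, SERPINB5 and PLAU higher, and PLAT is separated by only 0.487 CPM.

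In all, 2 of 6 members were higher (PLAU, SERPINB5), 3 were lower (PLAUR, S100A10, SERPINE2) and PLAT did not pass. Of all tested genes 19.9% were called higher and 19.3% lower, 39.1% together, so calls were common in this comparison. The groups did not overlap for 6 of 6 members, 3 in each direction, against 48.6% of all tested genes (24.2% higher and 24.3% lower). The members' median log2 fold change was -0.06 and that of all tested genes was -0.01, while the median absolute change was 0.26 for the members and 0.14 for all tested genes. Members were chosen with earlier results of these data known, so these shares and medians are descriptive and do not test the set. The spread of log2 CPM was wider in shPRSS22 than in shCtrl for 5 of 6 members, SERPINB5 being the exception, as it was for 54.9% of all tested genes. This count holds for log2 CPM and was not the same on the length-corrected values given below. The members' deposited counts held no decimals. The authors' deposited table gives log2 fold changes of 0.23 for PLAU, -0.56 for PLAUR, 0.11 for PLAT, -0.29 for SERPINE2, 0.65 for SERPINB5 and -0.23 for S100A10, with a q-value of 0.660 for PLAT and at most 0.00106 for the others.

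Levels of different genes were compared on the deposited TPM (transcripts per 1000000), which are corrected for transcript length. In shCtrl the order was S100A10 (402.3 ± 10.9 TPM), SERPINE2 (375 ± 6.84), PLAU (187 ± 3.22), PLAUR (153.2 ± 3.72), SERPINB5 (37.4 ± 2.15) and PLAT (8.59 ± 0.235). In shPRSS22 the order was the same, at 342 ± 14.98, 307 ± 4.25, 220.4 ± 9.16, 104.6 ± 6.91, 59.2 ± 0.859 and 9.36 ± 0.0802 TPM. No neighbours in either order overlapped in their libraries. In TPM the SD was smaller in shPRSS22 for SERPINE2, SERPINB5 and PLAT, and larger for S100A10, PLAU and PLAUR. The distances between neighbours were not alike in the 2 groups: PLAU exceeded PLAUR by 1.22 times in shCtrl and by 2.11 times in shPRSS22, whereas PLAUR exceeded SERPINB5 by 4.09 and 1.77 times. In TPM, annexin A2 (ANXA2), the partner of S100A10, stood at 1378 ± 15.4 in shCtrl, above every member.

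**Figure D2:**
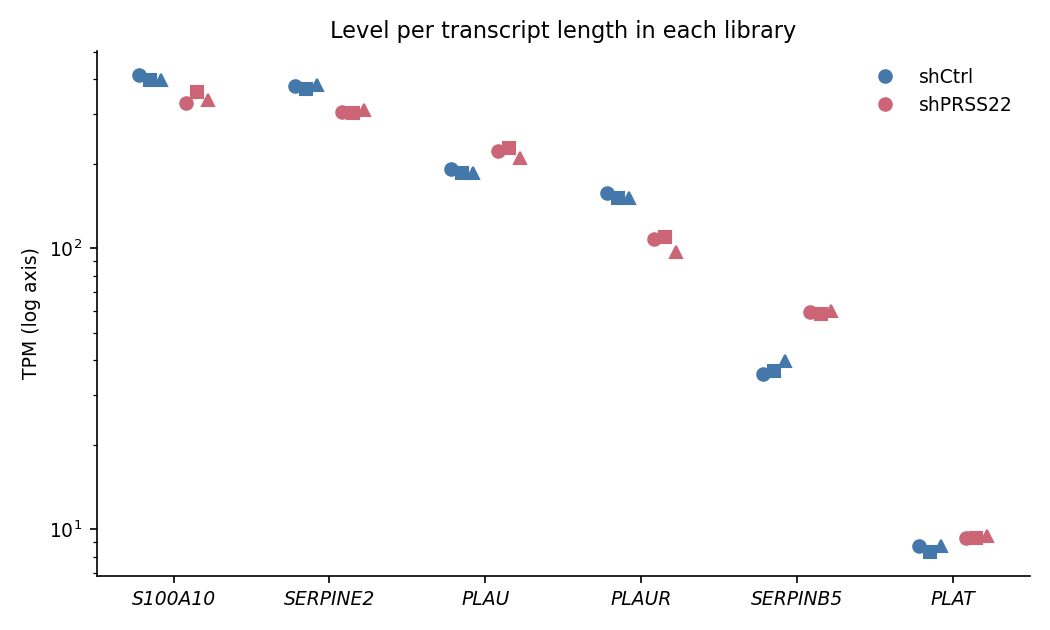
Deposited TPM of the 6 members on a log axis, 1 symbol per library (circles, squares and triangles for replicates 1, 2 and 3; shCtrl blue, shPRSS22 red). The order from S100A10 down to PLAT is the same in both groups, while PLAU and PLAUR, close together in shCtrl, stand apart in shPRSS22.

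Ratios within a library do not depend on scaling between libraries, and 3 were examined. The TPM ratio of PLAU to PLAUR was 1.21, 1.23 and 1.22 in shCtrl and 2.07, 2.09 and 2.18 in shPRSS22, which is 1.72 times higher. The ratio of SERPINE2 to PLAU, an inhibitor to its target, was 1.97, 1.98 and 2.06 in shCtrl and 1.38, 1.33 and 1.48 in shPRSS22, which is 1.44 times lower. The ratio of S100A10 to ANXA2 was 0.302, 0.291 and 0.284 in shCtrl and 0.247, 0.261 and 0.266 in shPRSS22, which is 1.13 times lower. For each of the 3 the groups did not overlap, and the exact two-sided permutation test gave p = 0.1 (0.1 after Benjamini-Hochberg adjustment over 3), the smallest that 3 against 3 libraries allow. For PLAU to PLAUR and SERPINE2 to PLAU, separation and p follow from the opposite, non-overlapping shifts of the genes themselves. These ratios therefore give the size of the shift and are no separate result.

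**Figure D3:**
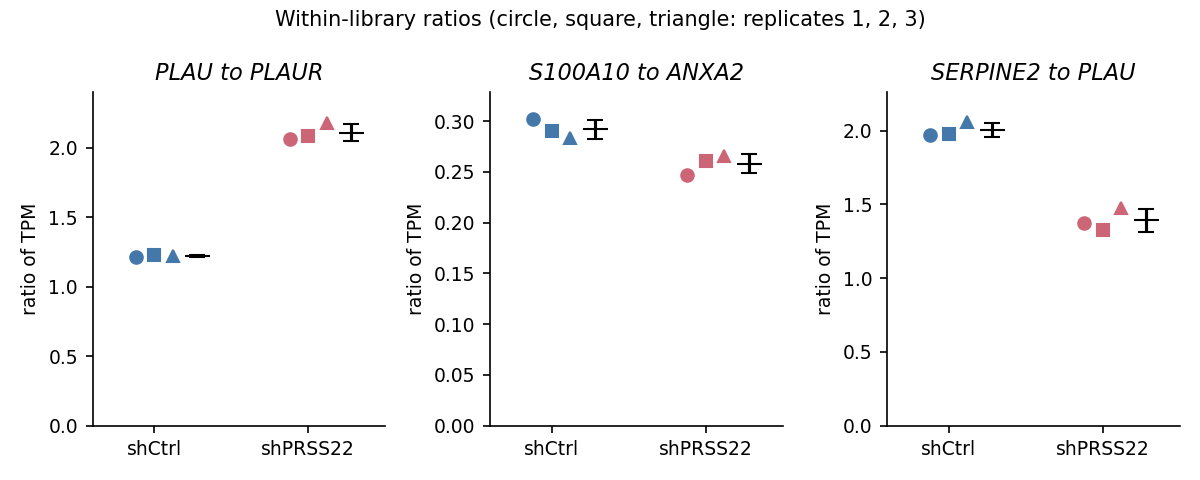
Ratios of deposited TPM within each library on linear axes from 0, with circles, squares and triangles for replicates 1, 2 and 3 and a black bar for the mean ± SD of 3 libraries. PLAU to PLAUR lies between 1.21 and 1.23 in shCtrl and between 2.07 and 2.18 in shPRSS22, and both other ratios are lower in every shPRSS22 library.

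The rest of the pathway was read from lists by role, members left out. Of 68 listed genes 51 were tested, and 12 were higher, 10 lower and 29 not called, 43.1% called against 39.1% of all tested genes. Their median log2 fold change was -0.01, the same as over all tested genes. Plasminogen itself (PLG) had 4 counts over the 6 libraries together, and the contact-phase zymogens KLKB1 and F11 had at most 7 counts in a library, too few to test. F12, coagulation factor XII, was at 5.37 ± 0.405 CPM in shCtrl and 4.95 ± 0.191 CPM in shPRSS22 and was not called (log2 fold change -0.12, adjusted p = 0.533). Among proteases that can activate pro-urokinase 33.3% of the tested genes were called, against 39.1% of all tested genes. Of these 3 tested proteases 1 fell. This was CTSB, cathepsin B, at 780, 757 and 746 CPM in shCtrl and 621, 666 and 629 CPM in shPRSS22 (log2 fold change -0.25, SE 0.035, adjusted p = 5.92e-07). ST14, matriptase, had a log2 fold change of -0.01 (SE 0.036, 95% interval -0.09 to 0.06), and CTSL, cathepsin L, one of 0.07 (adjusted p = 0.133, or 0.0394 without shPRSS22 replicate 2).

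Among the plasmin and activator inhibitors described here 1 of 6 tested genes rose and 1 fell, 33.3% called against 39.1% of all tested genes. SPINT1, a Kunitz inhibitor of matriptase, fell by 0.14 on the log2 scale (adjusted p = 0.00209). SERPINA5, protein C inhibitor, which also inhibits urokinase, rose by 0.22 on the log2 scale (adjusted p = 0.00129), with means of 41.7 ± 0.596 and 48.4 ± 1.69 CPM. SERPINF2, alpha-2-antiplasmin, measured 2.12 ± 0.180 and 2.89 ± 0.141 CPM with no overlap, yet was not called (log2 fold change 0.44, SE 0.198, adjusted p = 0.0749). The broad inhibitor A2M (0.06) and the Kunitz inhibitor SPINT2 (0.04) were not called. SERPINB2, a clade B serpin that inhibits urokinase, had 3 counts in 1 library and 0 in the others.

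Of 7 tested plasminogen-binding proteins 1 rose and 2 fell, 42.9% called against 39.1% of all tested genes. ANXA2, which binds S100A10, was measured at 1065, 1068 and 1082 CPM in shCtrl and at 1014, 1085 and 975 CPM in shPRSS22, with overlap and a log2 fold change of -0.06 (SE 0.037, adjusted p = 0.168). Without shPRSS22 replicate 2, its highest library, ANXA2 was called lower (log2 fold change -0.104, adjusted p = 0.0123). Its lowest library was shPRSS22 replicate 3, and leaving that out gave -0.0296 (adjusted p = 0.564). ENO1, alpha-enolase, which also serves as a surface receptor, was not called (-0.08, adjusted p = 0.119) but was called without shCtrl replicate 3 (adjusted p = 0.0488) or shPRSS22 replicate 2 (0.0145), whereas without shPRSS22 replicate 3 its value was -0.0391 (adjusted p = 0.480). PLGRKT, a transmembrane plasminogen receptor, fell from 20.8 ± 0.886 to 18.1 ± 1.15 CPM (-0.20, adjusted p = 0.0331), a call lost without shCtrl replicate 1 or 3 or shPRSS22 replicate 1 or 2 (adjusted p = 0.0964, 0.117, 0.160 and 0.056) and in DESeq2 (0.149). HMGB1 (-0.14, adjusted p = 0.0108) did not pass without shCtrl replicate 2 (0.0782) or shPRSS22 replicate 3 (0.0754). HRG, histidine-rich glycoprotein, was higher at 0.641 ± 0.167 against 1.33 ± 0.372 CPM (1.04, adjusted p = 0.0139), a level of few counts. Its call was lost without shCtrl replicate 2 (0.0817) or shPRSS22 replicate 2 (0.0914) and in DESeq2 (0.0798).

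Partners of the urokinase receptor and receptors that clear its complexes were split, with 3 of 13 tested genes higher and 2 lower. The share called was 38.5%, against 39.1% of all tested genes. SORL1, a receptor of the low density lipoprotein receptor family, had means of 179 ± 3.38 and 139 ± 6.31 CPM and fell by 0.36 on the log2 scale (SE 0.037, adjusted p = 2.00e-09). LRPAP1, the chaperone of this family, had a value of -0.12 (adjusted p = 0.0237), lost without shCtrl replicate 1 (0.102) or 3 (0.0623) or shPRSS22 replicate 1 (0.159) or 3 (0.0561) and in DESeq2 (0.0918). MRC2, a collagen receptor that associates with PLAUR, rose from 118 ± 4.96 to 137 ± 6.17 CPM (0.21, adjusted p = 6.90e-05). The fibronectin receptor subunit ITGA5 (0.19, adjusted p = 6.55e-05) and EGFR (0.16, adjusted p = 0.000255) also rose. LRP1, the main clearance receptor of urokinase in complex with its inhibitor, was measured at -0.02 (95% interval -0.17 to 0.13), LRP8 at -0.04, IGF2R at 0.04 and ITGA3, an integrin subunit that binds PLAUR, at -0.03, and none was called. VTN, vitronectin, the matrix ligand of PLAUR, had 0 counts in every library.

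Genes whose products plasmin or the activators cut held the largest change of the pathway lists, with 3 of 8 tested genes higher and 2 lower. Calls made up 62.5% of these tested genes, against 39.1% of all tested genes. MMP1, interstitial collagenase, whose zymogen plasmin can activate, stood at 5.41, 6.01 and 5.62 CPM in shCtrl and at 14.4, 14.1 and 15.2 CPM in shPRSS22 (log2 fold change 1.36, SE 0.105, adjusted p = 4.64e-12). MMP13, collagenase 3, was higher at 0.530 ± 0.00327 against 1.15 ± 0.291 CPM (1.11, adjusted p = 0.0126), which rests on few counts and was lost without shPRSS22 replicate 3 (0.0714). F2RL1, the protease-activated receptor 2, rose by 0.13 (adjusted p = 0.00472), and F2R, the protease-activated receptor 1, was at -0.06 and not called. PDGFC, a growth factor that tissue plasminogen activator matures, fell from 45.2 ± 1.12 to 38.2 ± 2.198 CPM (-0.24, adjusted p = 0.000704). TGFB1, whose latent form plasmin can release, fell from 72.3 ± 1.71 to 57.0 ± 0.754 CPM (-0.34, adjusted p = 2.82e-07). MST1, a ligand related to hepatocyte growth factor, was at -0.27 and not called (adjusted p = 0.0511), though it passed without shCtrl replicate 3 (0.0464) or shPRSS22 replicate 2 (0.035). HGF had 1 count over all libraries.

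Transcription factors known to act on the activator and receptor genes were higher in 4 and lower in 2 of 13 tested cases. The called share of 46.2% compares with 39.1% of all tested genes. FOSL1, an AP-1 subunit, rose by 0.85 on the log2 scale (SE 0.056, adjusted p = 9.95e-14), with means of 36.7 ± 0.436 and 66.2 ± 5.59 CPM. Its knockdown values were 66.3, 71.8 and 60.6 CPM. ETS1 (0.31, adjusted p = 5.53e-05) and ETS2 (0.17, adjusted p = 0.00238) rose, and SP1 fell (-0.20, adjusted p = 4.21e-05). FOSB at 0.45 (adjusted p = 0.0298) did not pass without shCtrl replicate 1 (0.0707) or 3 (0.086) or shPRSS22 replicate 1 (0.105) or 2 (0.0867) and in DESeq2 (0.137). FOSL2 at -0.17 (adjusted p = 0.0247) did not pass without shCtrl replicate 1 (0.195) or shPRSS22 replicate 3 (0.169) and in DESeq2 (0.0934). Its groups overlapped, with shPRSS22 replicate 2 at 46.08 CPM and shCtrl replicate 3 at 45.93 CPM. JUN, the usual AP-1 partner, was at -0.04 and not called.

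**Figure D4:**
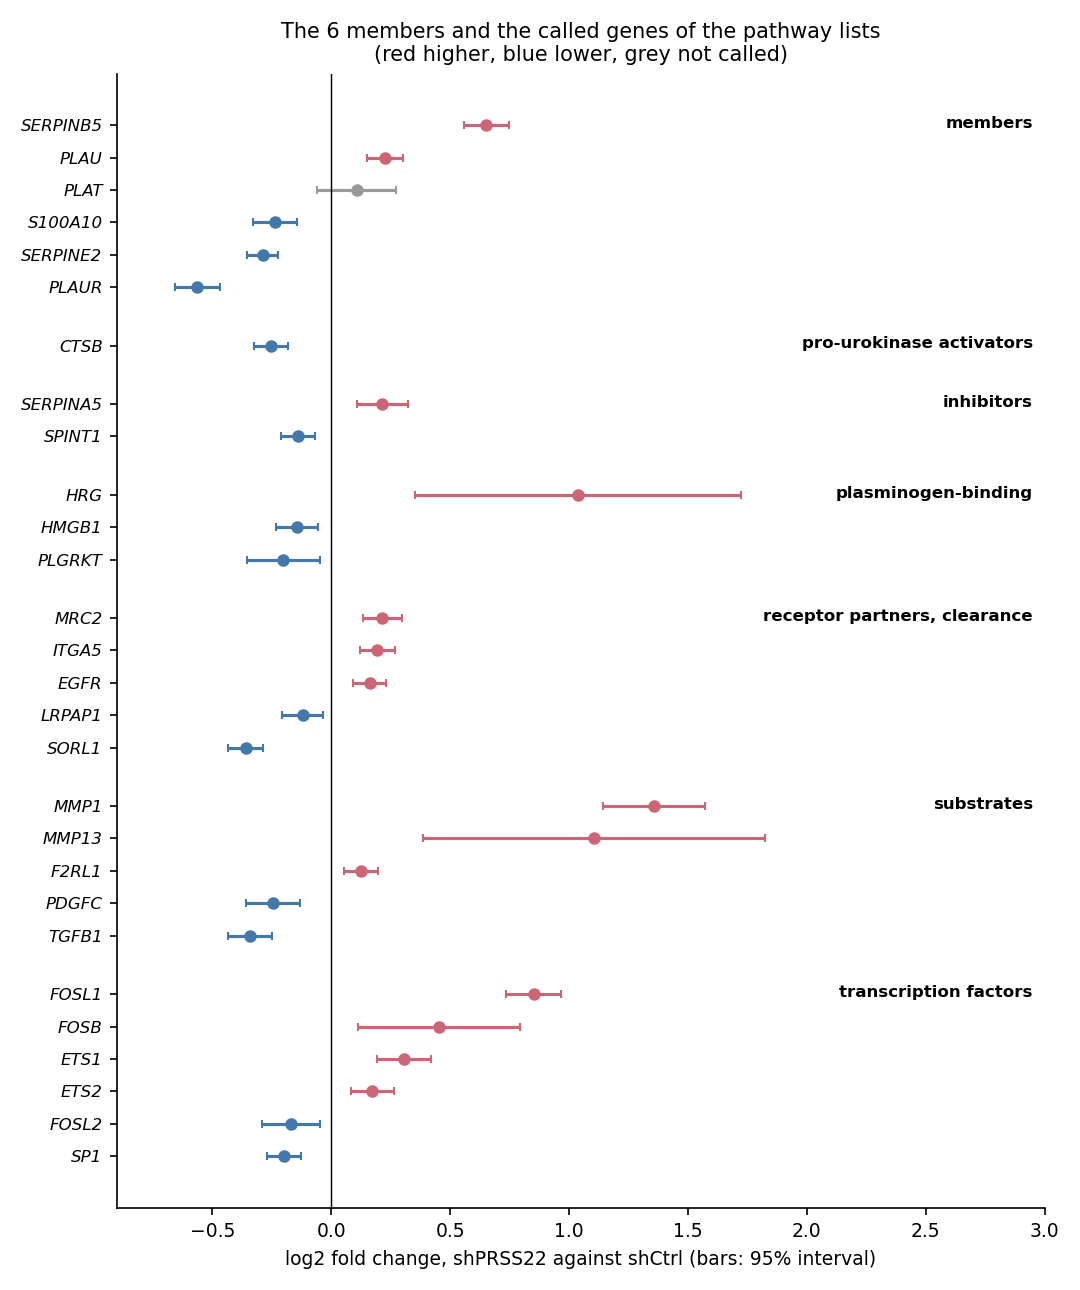
Log2 fold change of shPRSS22 against shCtrl with its 95% interval for the 6 members and for the called genes of each pathway list, red for higher, blue for lower and grey for not called. SERPINB5 and PLAUR lie farthest from 0 among the members, and MMP1 at 1.36 lies farthest of all genes drawn, while HRG and MMP13 have wide intervals.

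Relatives of the members by sequence family did not all move with them. Of 5 tested clade B serpins SERPINB5 was the member that rose, whereas SERPINB1 (-0.14, adjusted p = 0.0018), SERPINB6 (-0.18, adjusted p = 0.000867) and SERPINB9 (-0.22, adjusted p = 0.00011) fell. In this short list, SERPINB5 included, 80.0% of the tested genes were called, against 39.1% of all tested genes. SERPINB9 carried decimals in all 6 libraries, as estimated counts do where reads are divided between genes, and its value is therefore uncertain. SERPINB7 was below the filter, at 5 to 8 counts in shCtrl and 17, 18 and 5 counts in shPRSS22.

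Of 8 tested S100 genes 1, S100A10, was called lower and 2 higher, against 19.3% and 19.9% of all tested genes. S100A14 (0.25, adjusted p = 8.43e-07) and S100A11 (0.19, adjusted p = 0.000231) were the genes that rose, while S100A4 (0.02), S100A6 (0.06) and S100A16 (0.09, adjusted p = 0.0774) were not called. S100A16 passed without shCtrl replicate 2 (0.0372). Of 8 tested genes with the receptor's Ly6/uPAR fold, PLAUR, LY6E (-0.34, adjusted p = 9.45e-08) and CD59 (-0.10, adjusted p = 0.024) fell and LYPD6B rose (0.56, adjusted p = 6.01e-08). With PLAUR included, 50.0% of these tested genes were called, against 39.1% of all tested genes. The call of CD59, an inhibitor of complement, was lost without shCtrl replicate 1, 2 or 3 (0.0932, 0.0507 and 0.0546) or shPRSS22 replicate 3 (0.12) and in DESeq2 (0.0714). LYPD3, a close structural homolog of PLAUR, was at 0.15 and not called (adjusted p = 0.276).

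The genes with the most similar pattern to each member were found by the root-mean-square difference of centred log2 CPM over the 6 libraries, among 11156 genes of at least 5 CPM on average. For PLAUR these were ACSL5 (a difference of 0.0183) and KLHL9 (0.0278), and for SERPINB5 MXD1 (0.0248) and GSKIP (0.0342). For PLAU they were POR (0.0203) and CASP4 (0.0218), for SERPINE2 SPRY4 (0.0116) and NAT10 (0.0172), for S100A10 GTPBP8 (0.0118) and RET (0.0148), and for PLAT GADD45A (0.0106) and MAP2K1 (0.0106). With 6 libraries in 2 groups such likeness mostly reflects the size of the group difference. The direction of these genes follows from how they were chosen, so their calls are no separate result. All 12 but GTPBP8 were called in the direction of their member, PLAT's neighbours higher although PLAT itself did not pass. MAP2K1 did not pass without shCtrl replicate 2 (0.166) or 3 (0.0583) or shPRSS22 replicate 2 (0.0962) or 3 (0.0525) and in DESeq2 (0.115), and GTPBP8 passed without shPRSS22 replicate 2 (0.0497).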

How the data were processed

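Poly(A) RNA of 6 HCT116 libraries, 3 shCtrl and 3 shPRSS22, was analysed from 1 table deposited by the authors. Per the submitters' processing notes, the tools were RSEM 1.3.1, Bowtie2 2.3.4.3, HISAT2 2.2.1, R 4.3.1, FastQC 0.12.1 and DESeq2 1.4.5, and the build was GRCh38.p13; their roles are not given in the sources used here. Per the file headers the authors deposited, for each library, read counts (estimated counts, since some carry decimals), TPM, normalised read counts (a scaled signal) and FPKM, with group means. For each gene the authors also deposited its q-value, its p-value and the log2 fold change. FPKM and normalised read counts were not used.

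Estimated counts were rounded and tested with edgeR 4.0.16 (R 4.3.3; robust quasi-likelihood F test, TMM, filterByExpr, two-sided), with Benjamini-Hochberg adjustment over 13104 genes and a threshold of 0.05. CPM are per 1000000 of the TMM-scaled total over tested genes. The common coefficient of variation between libraries was 2.97%. Alternatives used DESeq2 1.42.0, limma 3.58.1 voom, other scaling and filters, a replicate block and each library left out. Gene positions are from GENCODE 29, which is on GRCh38. Promoter windows of 5 members came from RefSeq. Named genes are the members, PRSS22, called genes of the lists, others given to describe a list, and the 2 nearest genes per member. Members and lists were chosen with earlier results of these data known. Of the listed inhibitors 1 gene is not reported here and was left out of the list counts.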

Additional observations from a re-analysis of the deposited data

How the results depend on the processing

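Each of the 6 members kept its direction and its side of the threshold under all 13 alternatives: DESeq2, limma-voom, scaling by DESeq2 size factors or by library totals, no filter, a mean of at least 1 CPM, the replicate block and each of the 6 libraries left out. The log2 fold changes ranged from 0.185 to 0.267 for PLAU, -0.608 to -0.500 for PLAUR, 0.0911 to 0.129 for PLAT, -0.295 to -0.279 for SERPINE2, 0.622 to 0.698 for SERPINB5 and -0.287 to -0.199 for S100A10. The highest adjusted p among the 5 called members was 0.0017, for S100A10, and the lowest for PLAT was 0.285. The 3 ratios kept their direction on CPM and without each library, which for PLAU to PLAUR and SERPINE2 to PLAU follows from the separation of their genes. Called pathway genes numbered 9 to 13 higher and 7 to 12 lower. Alternatives were fitted on the whole count table. Beyond the members, values of single genes were read from them only for the pathway, family and neighbouring genes named with a fold change. They were not read for every listed gene or for the cell type marker lists. Of the uncalled genes among them 2 changed sign when a library was left out: ST14 ranged from -0.0399 to 0.00418 and LRP1 from -0.0456 to 0.0113. HRG and MMP13 gave no value at a mean of at least 1 CPM, and MMP13 had no adjusted p in DESeq2.

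Replicate numbers are shared between the groups in the labels. Deviations of same-numbered libraries from their group means correlated at 0.0194, 0.0329 and 0.0908 over genes, and those of different-numbered libraries at -0.115 to 0.0839. The largest same-numbered value lay just above that range. These values do not exclude a weak pairing, and the main test did not take the numbers as pairs. With the replicate number as a block 2 members were higher and 3 lower, as without it. Among all tested genes 2782 were higher and 2747 lower with the block, against 2603 and 2523 without it. With this block ENO1 (adjusted p = 0.0124), MST1 (0.033) and S100A16 (0.0295) passed the threshold. MST1 also passed with library totals only (0.0471).

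Depth limited statements on PLG, SERPINB2, VTN, HGF and other genes of few counts, for which no difference was detectable. Intervals cover the spread between these libraries only.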
